A study of Pyrus pyrifolia with 6 samples.

Results

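In pear fruit skin, 2 genes described as transcription factor MYB39-like, LOC103960041 and LOC103939715, had far fewer transcripts in fruits grown in bags than in fruits left uncovered. They were picked by name from the 7 genes with that description among the 42933 genes of the deposited table, with their difference between the groups already known. The difference is therefore given as a description, with no test. All fruits came from orchard trees of Pyrus pyrifolia, cultivar Cuiguan, a sand pear whose skin turns partly corky (semi-russet), and the skin was taken 95 days after full bloom. There were 3 libraries from untreated fruits and 3 from fruits in Kobayashi paper bags, a white bag of 1 layer from 20 days on and a yellow-white bag of double layer from 40 days on. The labels speak of biological replicates, and the number of fruits or trees in each is not given there, so the p-values measure the spread between these libraries.

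MYB39 belongs to the R2R3-MYB family, plant transcription factors that bind DNA through a pair of MYB repeats. In Arabidopsis the gene of that name, also called SUBERMAN, switches on suberin genes in the root endodermis. Suberin is the polyester of fatty acids, glycerol and ferulate that waterproofs cork cells, the cells that replace the smooth cuticle in a russeted skin. Fatty acid hydroxylases of the cytochrome P450 86 family, glycerol acyltransferases, feruloyl transferases and half-size ABC transporters make and export its building blocks.

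LOC103960041 lies on scaffold NW_008988224.1 from 361364 to 362840 on the plus strand. It had 112, 191 and 92 reads in untreated replicates 1 to 3 and 4, 7 and 19 reads in bagged replicates 1 to 3. Every untreated library was above every bagged one, as in 10.7% of the 25139 genes tested. The bagged reads were so few that counting error is wide. Per gene length and library size, as FPKM, the level was 5.62, 8.46 and 4.92 in untreated skin and 0.210, 0.350 and 0.864 in bagged skin. The mean was 6.34 ± 1.87 FPKM (SD, n = 3) against 0.475 ± 0.345 FPKM. On the scale of CPM (read counts relative to library size, with TMM factors) the mean was 7.30 ± 2.13 against 0.546 ± 0.396, a ratio of 13.4. The fitted log2 fold change, bagged over untreated, was -3.70 ± 0.47 (SE).

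LOC103939715 lies on scaffold NW_008989095.1 from 61487 to 63116 on the minus strand. It had 136, 260 and 138 reads in untreated replicates 1 to 3 and 9, 15 and 18 reads in bagged replicates 1 to 3. The groups again did not overlap, as in 10.7% of the 25139 genes tested, counted as every untreated library above every bagged one in FPKM. Its level was 6.14, 10.4 and 6.64 FPKM in untreated skin and 0.426, 0.674 and 0.737 FPKM in bagged skin. The mean was 7.71 ± 2.30 FPKM (SD, n = 3) against 0.612 ± 0.164 FPKM. In CPM the mean was 9.88 ± 2.92 against 0.782 ± 0.209, a ratio of 12.6, and the fitted log2 fold change was -3.64 ± 0.32 (SE). The authors' deposited table gives log2 fold changes of -3.72 for LOC103960041 and -3.65 for LOC103939715.

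**Figure D1:**
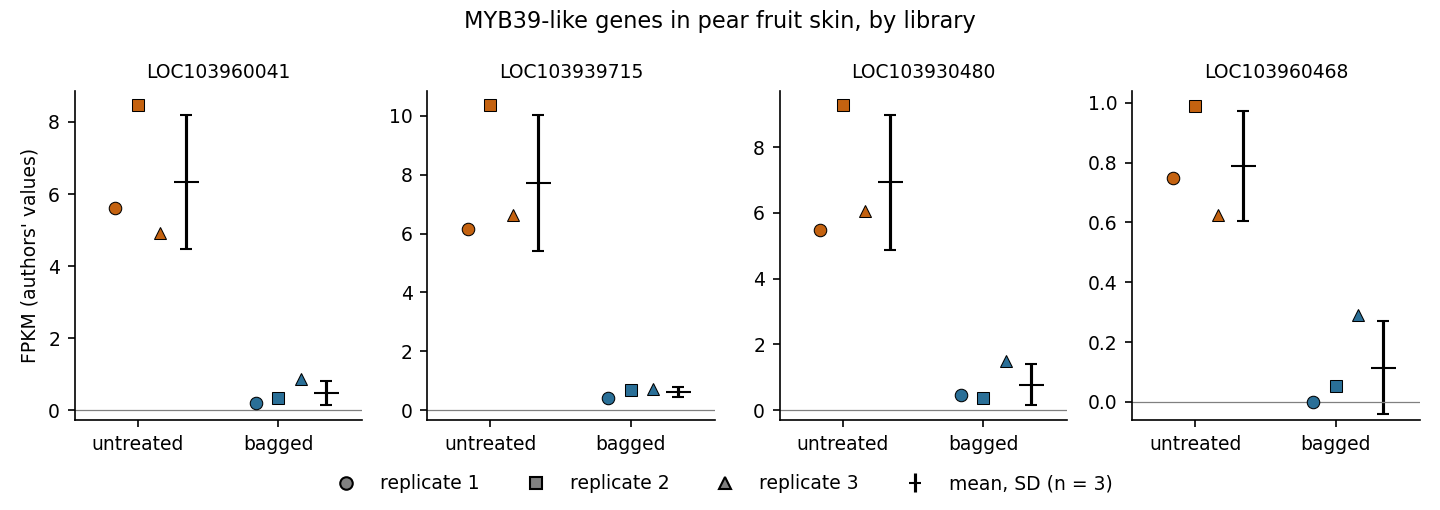
Levels (FPKM, y axis, a separate scale in each panel) of the 4 MYB39-like genes that passed the low-count filter, in untreated and bagged skin (x axis). Points are libraries, marked by replicate, and the bar beside them is the mean with its SD (n = 3). In each panel the 3 untreated libraries lie above the 3 bagged ones, as in 10.7% of all genes tested. Replicate 2 is the highest untreated library and replicate 3 the highest bagged one.

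Transcripts of both genes were thus still present in bagged skin, at 4 to 19 reads per library. For LOC103960041 the 95% exact Poisson interval ran from 0.066 to 0.620 CPM in bagged replicate 1 and from 0.598 to 1.55 CPM in bagged replicate 3. These intervals, which cover counting error only, overlap at their edges. For LOC103939715 the bagged intervals spanned 0.249 to 1.03, 0.481 to 1.42 and 0.558 to 1.49 CPM, so its 3 bagged libraries could not be told apart at this depth. The spread between replicates was alike for both genes in untreated skin, at 29.5% of the mean for LOC103960041 and 29.8% for LOC103939715. In bagged skin it was 72.6% for LOC103960041 and 26.8% for LOC103939715.

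The fold change of LOC103960041 was the more dependent on a single bagged library. Leaving out each library in turn gave log2 fold changes from -4.47 to -3.36, the extreme coming without bagged replicate 3. For LOC103939715 the same range was -3.80 to -3.37. As the tissue is a mix of cells, fewer cells that express a gene and less RNA per cell cannot be told apart.

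The level of one gene against the other was not used to choose them and could be tested. The log2 ratio of LOC103960041 to LOC103939715, on FPKM + 0.1, was -0.13, -0.29 and -0.42 in untreated replicates 1 to 3 and -0.76, -0.78 and 0.20 in bagged replicates 1 to 3. LOC103960041 was thus the lower of the pair in 5 of 6 libraries, and bagged replicate 3 went the other way. The mean ratio was -0.36 ± 0.38 (SD, n = 6), which did not pass a two-sided exact sign permutation test (p = 0.0938, where the smallest p that 6 libraries allow is 0.031). Within the untreated group the mean was -0.28 ± 0.15 (SD, n = 3), and within the bagged group -0.45 ± 0.56.

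The remaining 5 genes of the same description were not picked, and 1 of them, LOC103930480, was measured at a level close to that of the pair. It lies on scaffold NW_008988514.1 from 312583 to 313998. Its level was 5.47, 9.26 and 6.05 FPKM in untreated skin and 0.449, 0.373 and 1.50 FPKM in bagged skin. The means were 6.93 ± 2.04 (SD, n = 3) and 0.776 ± 0.633 FPKM. Again no bagged library reached an untreated one, as in 10.7% of all genes tested. It fell, with a log2 fold change of -3.13 ± 0.51 (SE) and an adjusted p of 0.0238 (edgeR quasi-likelihood test, Benjamini-Hochberg over all genes tested). Of all 25139 genes tested, 2.67% were called by this rule, 1.69% lower and 0.971% higher. The call of LOC103930480 was lost without untreated replicate 1 (adjusted p = 0.0573), untreated replicate 2 (0.0685), bagged replicate 1 (0.0931) or bagged replicate 2 (0.0679). With each library left out in turn its log2 fold change ran from -4.06 to -2.80. Over all genes, 135 to 386 were then called lower, against 426 with every library kept.

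LOC103960468, on scaffold NW_008988230.1 from 281102 to 282289, was expressed at a far lower level, 0.788 ± 0.185 FPKM in untreated and 0.115 ± 0.155 FPKM in bagged skin (SD, n = 3). Its counts were 14, 21 and 11 in untreated and 0, 1 and 6 in bagged skin, where the 0 of bagged replicate 1 allows up to 0.182 CPM (a one-sided limit of 3 counts, for counting error only). Its log2 fold change of -2.66 ± 0.77 (SE) did not pass the test (edgeR adjusted p = 0.141). The other 3 genes were not tested, for want of reads. LOC103938122 had 1 read in all, LOC103932362 had 2 and LOC103954864 had none.

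Untreated skin thus held transcripts of 3 MYB39-like genes at similar levels. Among 164 genes whose descriptions name MYB factors, LOC103939715 ranked 22nd, LOC103930480 26th and LOC103960041 29th by mean FPKM in untreated skin. LOC103939715 was the highest of the 3 in each untreated library, by less than the spread between libraries, and the order of the other two changed from library to library. Summed over the 7 genes, the MYB39-like level was 18.0, 29.1 and 18.2 FPKM in untreated replicates 1 to 3 and 1.09, 1.45 and 3.50 FPKM in bagged replicates 1 to 3. The chosen pair made up 65.4%, 64.6% and 63.4% of that sum in untreated skin. In bagged skin, with its few reads, the share was 58.6%, 70.6% and 45.7%.

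The gene models of the 3 abundant genes also look alike in a way that the choice did not use. The listed length falls short of the genomic span by 331 bases in LOC103960041, 356 in LOC103939715 and 342 in LOC103930480. The difference is 111 bases in LOC103960468, 123 in both LOC103938122 and LOC103932362, and 1759 in LOC103954864. The table does not say how length was counted. The 7 genes lie on 7 scaffolds, no listed gene overlaps the span of any of them, and all carry the same Myb_DNA-binding domain label. Reads that fit more than 1 gene of this family could have been split by the counting, which is not described in the sources used here.

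None of the 4 nearest tested neighbours on the scaffolds passed edgeR's test, and none did with DESeq2 or at an unadjusted p below 0.05. Beside LOC103939715 stand LOC103939714, for a subunit of the Mediator complex that links transcription factors to RNA polymerase, at a distance of 2690 bases, and the TRM112-like gene LOC103939717, at 23240 bases. LOC103939714 had 26.3 ± 3.69 CPM in untreated and 21.7 ± 4.72 CPM in bagged skin (SD, n = 3). Its log2 fold change was -0.28 ± 0.18 (edgeR adjusted p = 0.506), and that of LOC103939717 was 0.21 ± 0.23 (edgeR adjusted p = 0.712). Beside LOC103960041 the neighbours are farther away. The MICRORCHIDIA 6-like gene LOC103960040, at 114921 bases, had a log2 fold change of -0.38 ± 0.23 (edgeR adjusted p = 0.475). The zinc finger gene LOC103960042, a homologue of the acid-tolerance regulator STOP1, at 65552 bases, had one of -0.13 ± 0.21 (edgeR adjusted p = 0.831).

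Genes with a library profile most like that of each MYB39-like gene were sought among 14707 described genes with an average log2 CPM of at least 2. Likeness was the root mean square difference between log2 CPM profiles over the 6 libraries, each centred at its own mean. The genes are named as a description, since a group difference of this size by itself brings profiles close. Nearest to LOC103960041 was LOC103958657, listed only with a multicopper oxidase domain, the domain of laccases, at a distance of 0.17. It went from 41.7, 59.3 and 34.0 CPM in untreated to 2.30, 3.78 and 5.60 CPM in bagged skin. Next came the dirigent protein 23-like gene LOC103938359 (0.19), of a family that steers the coupling of monolignols, and LOC103938506 (0.20), an omega-hydroxypalmitate O-feruloyl transferase-like gene, the enzyme that puts ferulate on suberin fatty acids. The vegetative cell wall protein gp1-like gene LOC108866012 and the CASP-like protein 1B1 gene LOC103945089 followed, both at 0.21. The median distance over all candidates was 1.90.

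Nearest to LOC103939715 were LOC103942566, a heavy metal-associated isoprenylated protein 3 gene (0.20), and LOC103967342, a probable glutathione S-transferase gene (0.20). The patatin-like protein 2 gene LOC103959548, of a family of lipid acyl hydrolases, the anthranilate N-methyltransferase-like gene LOC103927983 and again LOC103958657 followed, each at 0.21. LOC103958657 is the 1 gene that stood among the nearest 5 of both. No MYB39-like gene stood among the nearest 5, which hold the smallest of 14707 distances from each gene. LOC103939715 and LOC103960041 lay 0.34 apart, the 30th place in the ranking from LOC103960041 and the 22nd in that from LOC103939715. LOC103930480 took the 27th place from LOC103960041 and the 68th from LOC103939715. All these places are out of 14707 candidates, with median distances of 1.90 from LOC103960041 and 1.77 from LOC103939715. The part of counting error in these distances was not tested.

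**Figure D2:**
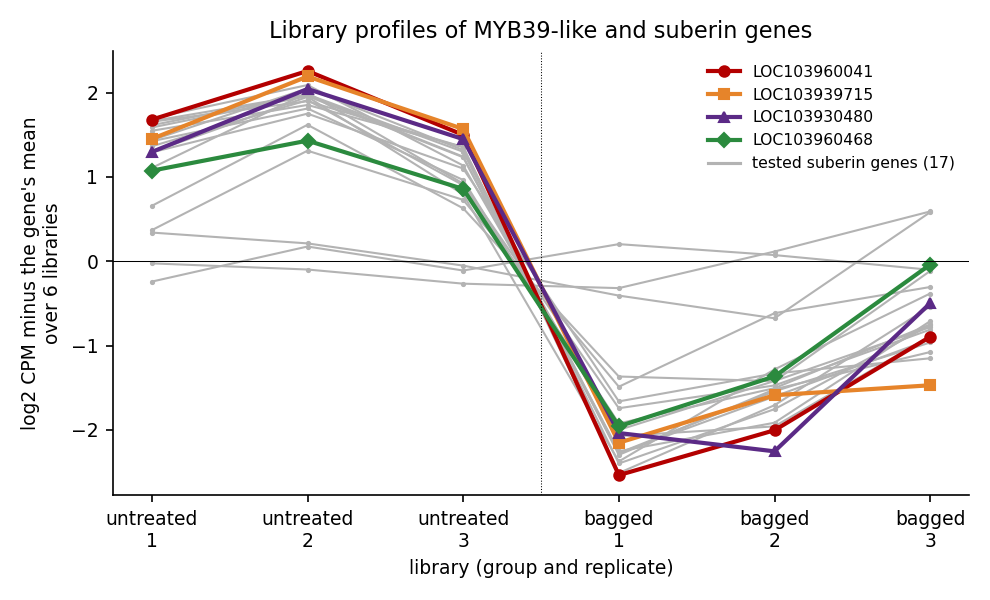
Centred log2 CPM (y axis, log2 CPM minus the gene's mean over the 6 libraries) in each library (x axis) for the 4 tested MYB39-like genes (coloured) and the 17 tested suberin genes (grey). Lines join the values of 1 gene and imply no order among libraries. Most grey lines run with the coloured ones, and a few stay near 0 in all libraries.

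Most structural genes of suberin were lower in bagged skin too. Of 21 genes on the suberin list 17 were tested, of which 12 fell, none rose and 5 did not pass, and the list median was -2.80 on the log2 scale against -0.01 over all genes tested. At an unadjusted p below 0.05 no suberin gene was higher and 14 were lower, and DESeq2 called none higher and 14 lower. Among all 25139 genes tested, edgeR called 1.69% lower and 0.971% higher. At an unadjusted p below 0.05, 1938 of them were lower and 2065 higher, and DESeq2 called 731 of them lower and 736 higher. Leaving out bagged replicate 2 left 7 suberin genes that fell. This list was chosen with earlier results of these libraries known, so its count is not independent evidence of its direction.

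Each step had a member that fell, except for the elongase. The feruloyl transferase-like gene LOC103966555 fell from 34.6 ± 8.80 to 3.94 ± 1.73 FPKM (SD, n = 3), with a log2 fold change of -3.13 ± 0.33. The cytochrome P450 86A1 gene LOC103963213, for the omega-hydroxylase of suberin fatty acids, fell by 3.24 ± 0.31 on the log2 scale. LOC103942961, a glycerol-3-phosphate acyltransferase 5-like gene, fell by 2.81 ± 0.35, a call lost without bagged replicate 2 (edgeR adjusted p = 0.0516). The transporter gene LOC103936749, ABC transporter G family member 6-like, fell by 2.78 ± 0.20. Their edgeR adjusted p-values lay between 0.0058 and 0.0114. The only elongase on the list, the 3-ketoacyl-CoA synthase 20-like gene LOC103940571, had a log2 fold change of 0.30 ± 0.21 and did not pass (edgeR adjusted p = 0.537). In other steps, too, some tested genes did not pass. The cytochrome P450 86B1-like gene LOC103945558 had 24.8 FPKM in untreated and 26.9 in bagged skin (edgeR adjusted p = 0.744). Log2 fold changes were -0.24 and -2.11 for feruloyl transferase-type genes LOC103951832 and LOC103936171, and -1.66 for the transporter gene LOC103948344 (edgeR adjusted p = 0.815, 0.107 and 0.0875).

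Within each group, too, the MYB39-like genes and the suberin genes had their highest values in the same libraries, a pattern described after the values were seen and not tested. All 4 tested MYB39-like genes were highest in untreated replicate 2 among the untreated libraries and in bagged replicate 3 among the bagged ones. So were 14 of the 17 tested suberin genes, against 10.9% of all genes tested. Of the 68 tested genes with other MYB descriptions, 17.6% had this pattern. The share was 23.3% for aromatic precursor genes, 18.8% for cutin genes and 25% for epidermal markers. Most genes in these comparison sets were not called, and the share among falling genes was not counted. Some other MYB genes that fell had the pattern too, such as LOC103953353 and LOC103951652, while others that fell, such as LOC103947039, did not. For LOC103939715 the bagged part of the pattern lies within counting error, as its intervals show. The intervals of bagged replicates 2 and 3 also overlapped for LOC103960041 (0.161 to 0.825 and 0.598 to 1.55 CPM). They did so for LOC103960468 too (0.0014 to 0.319 and 0.115 to 0.683 CPM). For LOC103930480 the interval of bagged replicate 3 (1.10 to 2.30 CPM) lay above those of bagged replicates 1 and 2 (0.209 to 0.954 and 0.161 to 0.825 CPM).

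**Figure D3:**
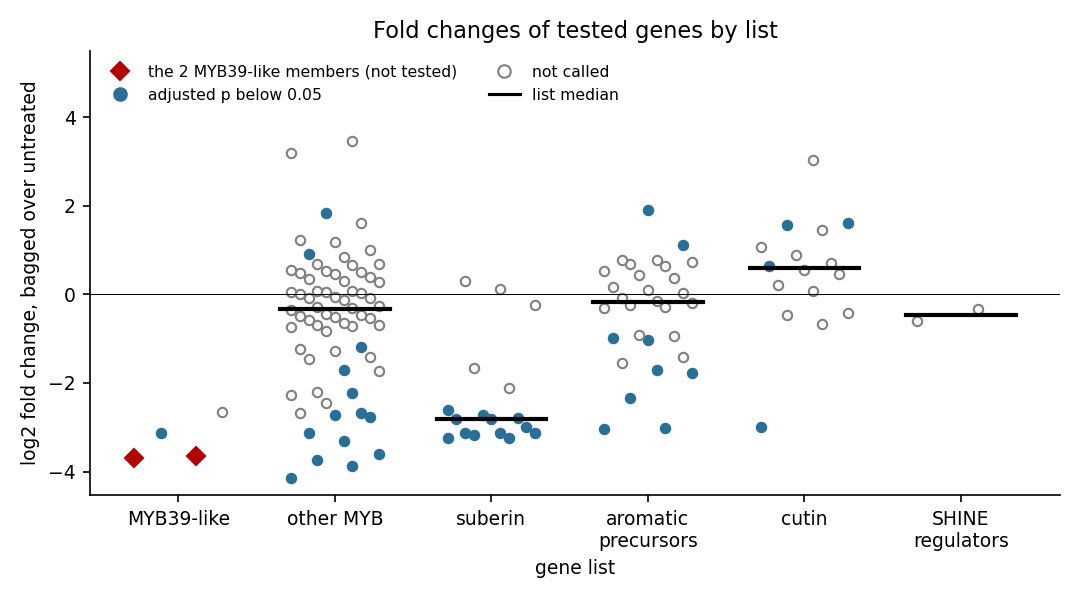
Log2 fold change of bagged over untreated skin (y axis) for each tested gene of 6 lists (x axis). Diamonds are LOC103960041 and LOC103939715, for which no test is given, filled circles passed an adjusted p of 0.05, open circles did not, and bars are the medians of the 5 other lists. Suberin genes cluster near the MYB39-like genes, while the other MYB genes, the aromatic precursor genes and the cutin genes spread on both sides of 0.

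Genes of the aromatic precursors, which lead from phenylalanine to feruloyl-CoA, went both ways. Of 40 such genes 30 were tested. Of these 7 fell, 2 rose and 21 did not pass, against 1.69% lower and 0.971% higher among all genes tested. The list median was -0.17 on the log2 scale. The largest fall was that of LOC103964288, a shikimate O-hydroxycinnamoyltransferase-like gene (-3.05 ± 0.58, edgeR adjusted p = 0.0398), and the largest rise that of the caffeoylshikimate esterase gene LOC103937186 (1.91 ± 0.25, edgeR adjusted p = 0.0123). For LOC103964288 the adjusted p rose above the threshold when untreated replicate 1 (0.0907), untreated replicate 2 (0.108), bagged replicate 1 (0.126) or bagged replicate 2 (0.113) was left out. Leaving out untreated replicate 1, untreated replicate 2 or bagged replicate 1 left 4 that fell. Leaving out any of these or bagged replicate 3 left 1 that rose.

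Of the 157 genes with other MYB descriptions, 68 were tested. Of these 12 fell, 2 rose and 54 did not pass, against 1.69% lower and 0.971% higher among all genes tested. The list median was -0.33 on the log2 scale. The largest fall was that of LOC103952062, described as Myb4-like (-4.16 ± 0.49, edgeR adjusted p = 0.0091), and the largest rise that of LOC103951046, another gene with a myb-related description (1.84 ± 0.19, edgeR adjusted p = 0.0066). LOC103952062 was a rare transcript, going from 2.81 to 0.154 CPM. With untreated replicate 1 or 2 left out 7 of these genes fell, and with bagged replicate 1 or 2 left out 2 did. With any 1 of those 4 libraries left out a single gene (1) rose, and with untreated replicate 3 left out 6 did. No gene of the table is described as MYB9, MYB41, MYB53, MYB92, MYB93 or MYB107, the names of some other Arabidopsis MYB factors linked to suberin.

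Cutin, the polyester of the smooth cuticle, has its own acyltransferases, hydroxylases and transporters. The cutin list held these and genes described as long chain acyl-CoA synthetase 1 or 2 or as HOTHEAD. Of its 29 genes 16 were tested. Of these 3 rose, 1 fell and 12 did not pass, against 0.971% higher and 1.69% lower among all genes tested. The list median was 0.59 on the log2 scale. LOC103963865, a hydroxylase gene described as cytochrome P450 86A22, rose (1.62 ± 0.32, edgeR adjusted p = 0.0448), and the ABC transporter G family member 32-like gene LOC103962994 fell (-2.998 ± 0.33, edgeR adjusted p = 0.0082). The others that rose were the long chain acyl-CoA synthetase 1 gene LOC103953111 (0.64 ± 0.11, edgeR adjusted p = 0.0268) and the HOTHEAD gene LOC103966469 (1.57 ± 0.25, edgeR adjusted p = 0.0231). The call of LOC103963865 was lost without any 1 of the 6 libraries (adjusted p 0.0547 to 0.119). Leaving out untreated replicate 1 or any 1 bagged library left 0 cutin genes that rose, and leaving out untreated replicate 2 left 1. Leaving out bagged replicate 2 gave 2 that fell. Of 8 genes described as WIN1 or SHINE, ethylene-responsive factors that switch on cuticle genes in Arabidopsis, 2 were tested and neither passed edgeR's test, the unadjusted threshold or DESeq2.

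Libraries held 15764049 to 19546285 counts each, and libraries of the same group differed beyond counting noise. Markers of the labelled tissue were present. Their counts stand against 0.971% higher and 1.69% lower among all 25139 genes tested by edgeR. At an unadjusted p below 0.05, 2065 of all genes tested were higher and 1938 lower. Of 20 genes for epidermal identity and wax 12 were tested, 3 rose and none fell (at an unadjusted p below 0.05, 7 higher and 1 lower, and 5 and 0 by DESeq2), and 2 of the 20 had no count. Their summed level was 53.2 to 65.4 FPKM in untreated and 67.6 to 99.2 FPKM in bagged libraries. None of 7 tested phloem genes was called by edgeR (1 higher and 1 lower at an unadjusted p below 0.05, 0 and 1 by DESeq2), with sums of 32.2 to 62.8 and 36.8 to 40.9 FPKM and 2 of 12 without a count. Neither of 2 tested secondary wall genes was called by edgeR, at the unadjusted threshold or by DESeq2, and the sums over all 15, of which 2 had no count, were 2.05 to 4.09 and 1.80 to 2.03 FPKM. The part of these shifts in the MYB39-like difference was not tested.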

How the data were processed

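Per the labels' protocols, RNA of fruit skin was extracted with CTAB and sequenced from NEBNext Ultra libraries. Reads were aligned with HISAT2, per the submitters' processing notes. How reads were counted, with which strand setting, genome build and gene annotation, is not given in the sources used here, and positions are those of the deposited table. The authors deposited raw read counts and FPKM for each gene and library. Their deposited log2 fold changes are quoted once, and their deposited p-values and scaled group signal were not used, with the test not named in the file headers. Gene descriptions come from the same table.

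The counts went into edgeR 4.0.16 (R 4.3.3). After filterByExpr, with at least 10 counts and a total of at least 15, 25139 genes remained for TMM scaling, and the quasi-likelihood test set bagged against untreated skin over all of them, with no covariate and a call at a Benjamini-Hochberg adjusted p below 0.05. Standard errors are the absolute fold change over the root of the F statistic. The test was tested on simulated data. Profiles used log2 CPM with a prior count of 2, and intervals of single counts are exact Poisson intervals (95%).

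The members, the gene lists and the alternatives were chosen with earlier results of these data known. Lists are text patterns on the descriptions. The other MYB pattern also took in LOC103946021, LOC103949018 and LOC103933353. These are listed only with an N-terminal domain named for both bHLH-MYC and R2R3-MYB factors, and of them LOC103946021 was tested. The suberin pattern also took in 2 probable 1-acyl-sn-glycerol-3-phosphate acyltransferase 5 genes, neither with enough reads to be tested, the cutin pattern 2 of number 4, also not tested, and the suberin pattern found no fatty acyl reductase. Named were every MYB39-like gene, for each suberin step the gene with the lowest adjusted p, for each other list the called gene with the largest fold change in each direction, the 5 genes most alike to each member and the nearest tested gene on each side. Also named were the other cutin genes that rose, the other suberin genes that did not pass the test and, picked after the values were seen, some other MYB genes that fell. Protein and promoter sequences were not used here. Alternatives were scaling by RLE or by library size alone, testing without a low-count filter or with CPM of 1 or more in 3 libraries, DESeq2 1.42.0, FPKM on a log2 scale, the replicate number as a block and each library left out in turn.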

Additional observations from a re-analysis of the deposited data

How the results depend on the processing

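LOC103960041 and LOC103939715 stayed lower in bagged skin under every alternative run. On log2(FPKM + 1) their differences were -2.31 and -2.41, since that pseudocount exceeds their bagged levels. The ratio between them did not pass its test under any alternative, and with 5 or fewer libraries it could not. DESeq2 called 18 other MYB genes lower and 9 higher, 9 aromatic precursor genes lower and 6 higher, and 2 cutin genes lower and 7 higher. In all it called 769 genes lower and 769 higher. Cutin genes that fell numbered 2 under library size alone and with no low-count filter. With each library left out in turn, 7 to 12 suberin genes fell, 2 to 11 other MYB genes fell and 1 to 6 rose, 4 to 8 aromatic precursor genes fell and 1 to 2 rose, 1 to 2 cutin genes fell and 0 to 3 rose, and 135 to 386 of all genes fell and 70 to 306 rose. The log2 fold change of LOC103960042 then ranged from -0.33 to 0.036, the latter without bagged replicate 3. No pairing of libraries by replicate number was seen. The deviations of same-numbered libraries from their group means had correlations of -0.0444, 0.083 and 0.0567. For libraries of unlike number they ran from -0.13 to 0.0774. With 3 libraries per group this check cannot exclude a pairing. In the fit with a replicate block, 5 other MYB genes and 5 cutin genes rose, the call of LOC103964288 was lost (adjusted p = 0.0559) and the fold changes of the 2 chosen genes were -3.76 and -3.63. The cause of these shifts was not tested. Depth limits the bagged values, which rest on 4 to 19 reads per library. No gene was described with any of the other suberin-linked MYB names that had been listed, so that planned count was not run.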
